A study of Mus musculus with 12 samples.

Results

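The genes described here encode the subunits of voltage-gated sodium and calcium channels, with the related leak channel Nalcn. They were taken as all protein-coding entries of the count table whose name began with Scn and a digit, or with Cacn, plus Nalcn. This gave 43 gene IDs under 41 symbols, of 40912 gene IDs in all, since Cacng6 and Cacng7 are each listed under 2 IDs. RNA came from spinal cord of bacTRAP mice at postnatal day 21, in 4 groups of 3 libraries. TRAP_Chat was RNA pulled down with tagged ribosomes from the strain Tg(Chat-EGFP/Rpl10a)DW167Htz, and PreIP_Chat was RNA of that strain taken before the pulldown, here called its input. TRAP_Snap25 and PreIP_Snap25 were the pulldown and input of the strain Tg(Snap25-EGFP/Rpl10a)JD362Jdd. All 4 groups carry a transgene for the ribosomal protein Rpl10a fused to EGFP. It is driven by sequences of Chat, which cholinergic neurons such as motor neurons use to make acetylcholine, or of Snap25, which neurons in general use for transmitter release. Cholinergic interneurons may therefore be tagged along with motor neurons in the Chat line. The labels do not say whether replicates were separate animals or pools, so p-values measure the spread between these libraries, which may be technical.

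In both channel families a large pore-forming protein senses the membrane voltage and opens to let sodium or calcium in, and smaller subunits set where and how well it works. Sodium channels start and carry the action potential and are concentrated at the initial segment and nodes of the axon. Calcium channels trigger transmitter release at nerve endings, carry persistent currents in motor neurons and shape firing near rest. Several gamma subunits of the calcium channel family act mainly as auxiliary subunits of AMPA-type glutamate receptors.

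The promoters of the 4 genes with the largest differences among those that passed the threshold between the pulldowns of the lines are shown first, because the results turn on them: Scn9a and Cacna1d, which were higher in TRAP_Chat, and Scn2b and Cacna1i, which were lower. Each is a RefSeq window of GRCm38.p6 from 250 bases before to 50 bases after the gene's start, written 5′ to 3′ on the gene's strand with every CG pair in capitals. Cacna1d has 2 listed starts, of which the first is shown.
Scn9a, chr2:66634913-66635212, minus strand: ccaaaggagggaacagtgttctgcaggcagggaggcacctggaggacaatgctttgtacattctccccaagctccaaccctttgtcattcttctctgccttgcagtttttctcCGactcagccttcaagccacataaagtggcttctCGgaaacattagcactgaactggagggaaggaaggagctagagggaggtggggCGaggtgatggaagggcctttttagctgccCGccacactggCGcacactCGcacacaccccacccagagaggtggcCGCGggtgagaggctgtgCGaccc
Cacna1d, chr14:30491107-30491406, minus strand: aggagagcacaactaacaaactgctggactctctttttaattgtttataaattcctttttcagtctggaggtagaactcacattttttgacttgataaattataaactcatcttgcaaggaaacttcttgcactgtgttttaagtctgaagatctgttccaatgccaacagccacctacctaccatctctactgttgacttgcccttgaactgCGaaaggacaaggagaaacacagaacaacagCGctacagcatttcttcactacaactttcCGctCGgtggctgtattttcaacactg
Scn2b, chr9:45117626-45117925, plus strand: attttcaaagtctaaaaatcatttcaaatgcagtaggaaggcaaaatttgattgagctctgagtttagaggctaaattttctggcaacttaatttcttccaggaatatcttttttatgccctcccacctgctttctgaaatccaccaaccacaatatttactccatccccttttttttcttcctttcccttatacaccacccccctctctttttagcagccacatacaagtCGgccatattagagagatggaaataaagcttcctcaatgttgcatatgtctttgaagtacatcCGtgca
Cacna1i, chr15:80286988-80287287, plus strand: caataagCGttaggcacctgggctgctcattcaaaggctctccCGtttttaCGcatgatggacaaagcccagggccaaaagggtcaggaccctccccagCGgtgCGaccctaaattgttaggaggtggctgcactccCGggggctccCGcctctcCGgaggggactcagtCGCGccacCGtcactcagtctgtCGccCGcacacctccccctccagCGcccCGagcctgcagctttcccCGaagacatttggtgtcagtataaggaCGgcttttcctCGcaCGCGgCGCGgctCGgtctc
The windows differed in base composition, with 57.3% G and C for Scn9a, 40.3% for Cacna1d, 38.3% for Scn2b and 62.7% for Cacna1i. They held 9 CG pairs in Scn9a, 4 in Cacna1d, 2 in Scn2b and 23 in Cacna1i. The second listed start of Cacna1d had 87.3% G and C and 63 CG pairs. Windows were found for 31 of the 41 symbols, 42 windows in all, with a median of 58.3% G and C and 9 CG pairs, against 52.7% and 7 over all 32851 windows.

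The letters TATAAA, a core TATA box, were searched on both strands with overlapping matches counted. They stood in 2 of the 42 channel windows (4.76%), against 13.6% of all windows. Those were the window of Cacna1d shown above, which held 3 matches, and 1 window of Scn2a1, listed as Scn2a in RefSeq. The homeodomain core TAATTA was in 0 of the 42 channel windows and in 5.29% of all windows. Neither motif was therefore found in the shown windows of Scn9a, Scn2b and Cacna1i, which says only that these letters are not there.

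Total counts ran from 10149346 to 20521699 per library. The channel genes took 0.253% ± 0.029 of them in TRAP_Chat, 0.192% ± 0.024 in PreIP_Chat, 0.313% ± 0.065 in TRAP_Snap25 and 0.179% ± 0.026 in PreIP_Snap25 (SD, n = 3 each). Mitochondrial ribosomal RNA took 0.209% to 6.67% of the counts in the pulldown libraries and 23.2% to 40.7% in the inputs. Of the remaining counts, the channel genes took 0.259% ± 0.022 in TRAP_Chat, 0.256% ± 0.026 in PreIP_Chat, 0.314% ± 0.065 in TRAP_Snap25 and 0.268% ± 0.043 in PreIP_Snap25. In both lines the pulldown and input thus differed by less than the SD of the pulldown. Chat had 106, 185 and 187 CPM in TRAP_Chat, against 30.2, 20.3 and 16.1 CPM in PreIP_Chat and 20.0, 26.1 and 28.9 CPM in TRAP_Snap25, where CPM are read counts scaled to library size with TMM factors. Snap25 was 1.92-fold lower in TRAP_Chat than in TRAP_Snap25, and its difference from input did not pass in the Chat line (adjusted p = 0.297) or the Snap25 line (adjusted p = 0.0544). Rpl10a, the gene behind the tag, had only 44 to 175 counts per library. It was 2.34-fold lower in TRAP_Chat than in PreIP_Chat, close to the threshold (adjusted p = 0.0475). In the Snap25 line its difference from input did not pass (log2 difference -0.15, adjusted p = 0.838). All 10 motor neuron markers were higher and all 8 inhibitory neuron markers lower in TRAP_Chat than in PreIP_Chat, and all 8 oligodendrocyte and all 8 astrocyte markers were lower in both pulldowns. In TRAP_Snap25 against its input, 5 of the 10 motor neuron markers were higher and 0 lower. Of the 8 inhibitory neuron markers 0 were higher and 1 was lower there. Of 5 excitatory interneuron markers 1 was higher and 0 were lower, with a median log2 difference of -0.68. Replicates of the pulldowns varied more than those of the inputs, the coefficient of biological variation in edgeR being 0.479 in TRAP_Chat, 0.231 in PreIP_Chat, 0.495 in TRAP_Snap25 and 0.285 in PreIP_Snap25. In bulk RNA, fewer cells of a type and less RNA per cell cannot be told apart.

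Some libraries stood apart in channel genes. Scn10a, a pore gene of pain-sensing neurons of the dorsal root ganglia, had 0, 97 and 0 counts in TRAP_Chat and 0, 66 and 3 in PreIP_Chat. Scn11a, its neighbor with a like role, had 0, 50 and 0 counts in TRAP_Chat and 0, 37 and 1 in PreIP_Chat. Replicate 2 of both groups was thus high, and the largest count of Scn10a elsewhere was 17, in PreIP_Snap25 replicate 1. The sensory marker Avil had 0, 49 and 7 counts in TRAP_Chat and 0, 23 and 1 in PreIP_Chat. Prdm12 had 0, 37 and 1 counts in TRAP_Chat and 8, 44 and 0 in PreIP_Chat, with replicate 2 again highest in each group. Of the more abundant sensory markers, P2rx3 had 40, 24 and 72 counts in TRAP_Chat and 10, 19 and 24 in PreIP_Chat, and Pou4f1 had 20, 55 and 69 in TRAP_Chat and 100, 128 and 102 in PreIP_Chat, so replicate 2 of TRAP_Chat was not the highest for either. The defining markers Trpv1 and Mrgprd were at 0 in TRAP_Chat, and had 6 and 8 counts in PreIP_Chat replicate 2. The 7 sensory markers, of which 2 passed the filter, summed to between 3.71 and 12.8 CPM in TRAP_Chat, between 6.93 and 12.6 CPM in PreIP_Chat, between 3.13 and 9.40 CPM in TRAP_Snap25 and between 6.97 and 11.2 CPM in PreIP_Snap25.

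PreIP_Chat replicate 2 also held most of the skeletal muscle channel RNA. Its counts were 66 of Cacna1s, 38 of Cacng1 and 10 of Scn4a, and no other library had more than 17, 2 and 3 of these genes. The 8 muscle markers summed to 3.52, 56.1 and 6.20 CPM in TRAP_Chat and 5.92, 336 and 32.1 CPM in PreIP_Chat, with replicate 2 highest in both. Where leaving out replicate 2 of both Chat groups ends a call of a channel gene named here, the value without that pair is given.

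**Figure D1:**
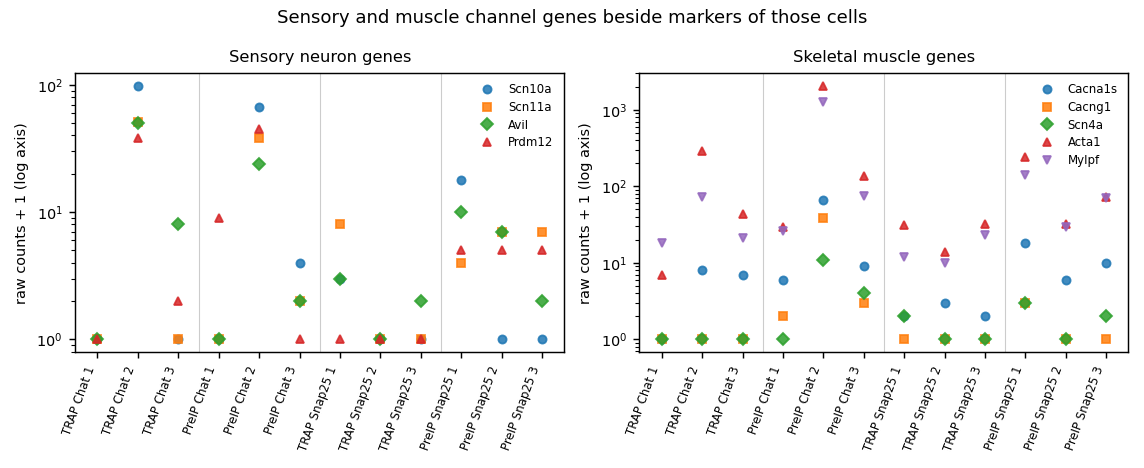
Raw counts plus 1 (log axis) of sensory neuron genes and of skeletal muscle genes in each of the 12 libraries, with 1 point per gene and library. TRAP_Chat replicate 2 and PreIP_Chat replicate 2 carry Scn10a (97 and 66 counts), and PreIP_Chat replicate 2 carries Cacna1s (66 counts).

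The filter on low counts kept 34 of the 43 IDs, among 15905 genes tested. Of the 9 IDs not tested, Scn4a, Cacna1s and Cacng1 belong to skeletal muscle, and Cacna1f, a retinal gene, had at most 11 counts in a library. Cacng8, both IDs of Cacng6 and 1 ID of Cacng7 were at 0 in every library, and the other ID of Cacng7 had 6 counts over all 12. A library's limit for a count of 0, taken as 3 counts, lay between 0.146 and 0.296 CPM and covers counting error only.

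Levels per kb of exon allow subunits to be compared with each other. Among sodium channel pores Scn1a and Scn8a, both found at initial segments and nodes, stood above the rest. Scn1a averaged 28.5 ± 10.7 CPM per kb in TRAP_Chat, 18.2 ± 3.37 in PreIP_Chat, 38.1 ± 17.2 in TRAP_Snap25 and 19.5 ± 1.496 in PreIP_Snap25 (SD, n = 3 each). Scn8a averaged 18.4 ± 3.503 CPM per kb in TRAP_Chat, 17.8 ± 1.48 in PreIP_Chat, 18.1 ± 7.39 in TRAP_Snap25 and 18.1 ± 2.46 in PreIP_Snap25. The next pore, Scn2a1, averaged 1.98 CPM per kb in TRAP_Chat and at most 4.33 in another group, while Scn9a, Scn3a and Scn7a stayed near or below 1. Among beta subunits Scn2b averaged 19.6 ± 6.81 CPM per kb in TRAP_Chat, 25.6 ± 1.75 in PreIP_Chat, 59.6 ± 7.81 in TRAP_Snap25 and 26.9 ± 5.74 in PreIP_Snap25. Scn4b averaged 31.4 ± 6.53 CPM per kb in TRAP_Chat, 33.5 ± 5.38 in PreIP_Chat, 47.3 ± 12.6 in TRAP_Snap25 and 29.5 ± 7.96 in PreIP_Snap25, above Scn2b in all groups but TRAP_Snap25. Scn3b averaged between 5.28 and 6.13 CPM per kb over the groups.

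Among calcium channel pores in TRAP_Chat, the order by CPM per kb was Cacna1a (7.59 ± 0.796), Cacna1g (4.34 ± 1.91), Cacna1h (3.24 ± 1.61), Cacna1b (3.13 ± 0.843), Cacna1d (2.46 ± 0.386), Cacna1e (1.59 ± 0.434), Cacna1c (1.41 ± 0.668) and Cacna1i (0.496 ± 0.327). Cacna1a lay further above Cacna1g, and Cacna1d above Cacna1e, than the sum of their SDs, while the other neighbors in this order lay within it. In PreIP_Chat Cacna1b (6.32 ± 0.863) and Cacna1a (5.84 ± 0.738) led, and Cacna1d (1.04 ± 0.146) was last of the 8. Cacna1d was also last in TRAP_Snap25, at 0.646 ± 0.216 CPM per kb.

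Shares within a family, from CPM per kb, are given as a description. Scn1a made up 49.7%, 60.9% and 51.6% of sodium channel pore RNA in TRAP_Chat, against 36.8%, 44.7% and 46.0% in PreIP_Chat. It made up 65.1%, 57.2% and 59.8% in TRAP_Snap25, against 43.8%, 42.1% and 46.1% in PreIP_Snap25, so its share was higher in every pulldown library than in any input of the same line. Scn2b took 7.82%, 5.70% and 12.8% of sodium channel beta RNA in TRAP_Chat, against 22.5%, 20.7% and 19.4% in TRAP_Snap25, which did not overlap. Cacna1d made up 11.0%, 10.1% and 9.44% of calcium channel pore RNA in TRAP_Chat, against 3.23%, 4.45% and 4.38% in PreIP_Chat. Cacna2d3 led the alpha2delta genes in TRAP_Chat with 49.4%, 46.0% and 47.3%, whereas Cacna2d2 led in PreIP_Chat with 69.9%, 64.1% and 57.6%. Cacnb4 made up 21.0%, 20.4% and 20.6% of calcium channel beta RNA in TRAP_Chat, against 30.6%, 41.8% and 42.4% in PreIP_Chat. Cacng3 made up 43.0%, 49.0% and 46.9% of gamma RNA in TRAP_Snap25, against 18.1%, 15.6% and 24.3% in PreIP_Snap25. Each of these 3 contrasts was free of overlap.

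**Figure D2:**
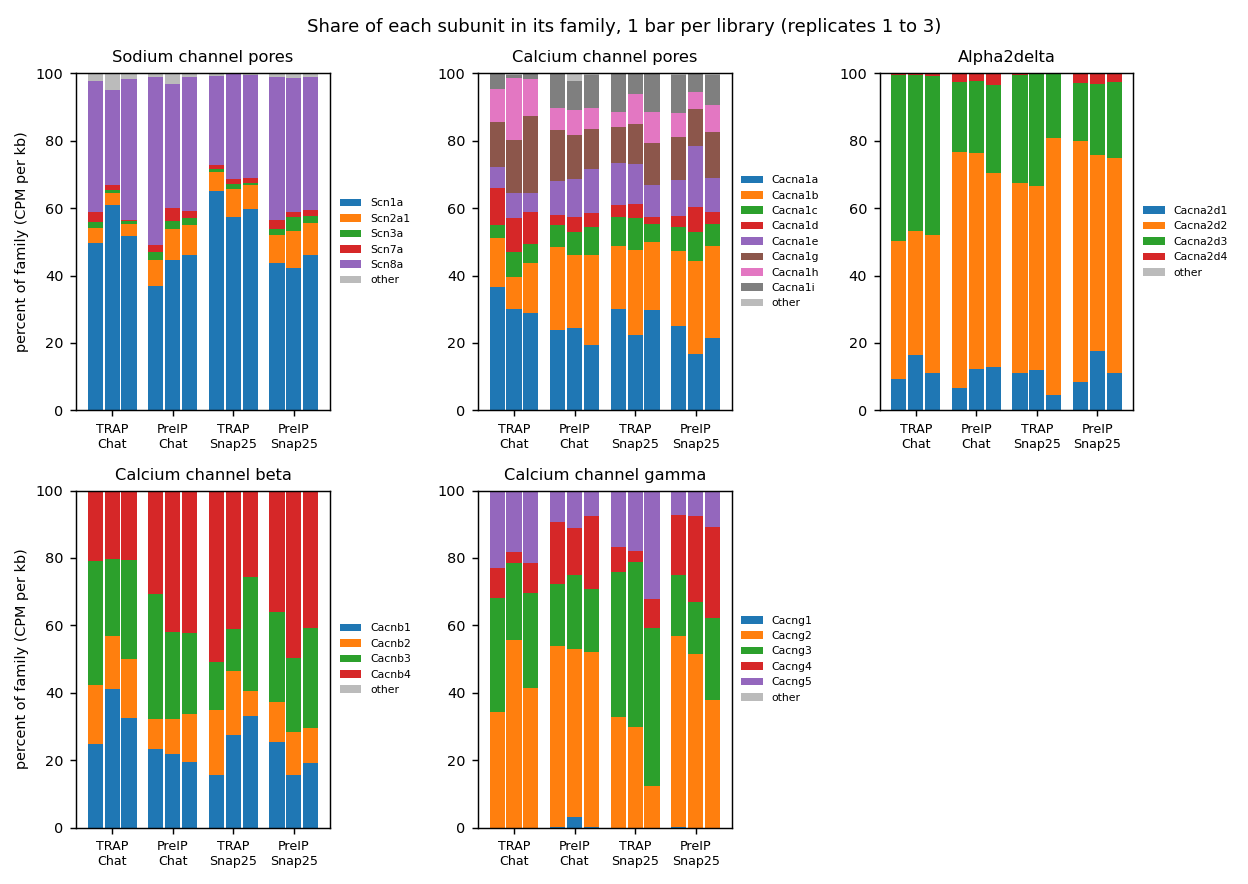
Percent of each subunit within its family for 5 families, from CPM per kb of exon, with 1 stacked bar per library and 3 per group in the order TRAP_Chat, PreIP_Chat, TRAP_Snap25, PreIP_Snap25. Cacna2d3 takes 46.0% to 49.4% of its family in TRAP_Chat, against 20.8% to 25.9% in PreIP_Chat.

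Setting the Chat pulldown beside its input shows which channel RNAs were more or less abundant in the pulldown than in whole tissue. The pulldown also held oligodendrocyte markers, given below, so its RNA may not all come from tagged cells. In TRAP_Chat 7 of the 34 tested channel genes were higher (20.6%, against 12.6% of all tested genes) and 7 were lower (20.6%, against 14.3% of all tested genes), by edgeR's quasi-likelihood test at an adjusted p of 0.05. The median log2 difference was 0.22 over the channel genes and -0.06 over all tested genes. Among those higher were Scn9a, Cacna1d, Cacna2d3, Cacnb1, Cacnb2 and Cacng5. Among those lower were Scn2a1, Cacna1b, Cacna1e, Cacna1i, Cacna2d4 and Cacng4.

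Among sodium channel pores, Scn9a was higher and Scn2a1 lower in TRAP_Chat. Scn9a (ENSMUSG00000075316), best known from peripheral sensory and sympathetic neurons, had 10.8, 20.8 and 10.5 CPM in TRAP_Chat, against 4.46, 4.87 and 3.65 CPM in PreIP_Chat. The groups did not overlap, and the highest library was TRAP_Chat replicate 2, which also held Scn10a and Scn11a. Scn9a was 3.23-fold higher (log2 difference 1.69 with a standard error of 0.52, adjusted p = 0.0233), and 1.44 on the log2 scale with an adjusted p of 0.159 without replicate 2 of both groups. Gm13629, an antisense gene over 1.41% of the exon bases of Scn9a, did not pass (log2 difference 0.11 with a standard error of 0.53, adjusted p = 0.899), and reads of that stretch cannot be told apart by strand.

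Scn2a1 (ENSMUSG00000075318), a pore gene of unmyelinated and immature axons, had 21.8, 30.1 and 23.8 CPM in TRAP_Chat, against 39.4, 52.5 and 51.1 CPM in PreIP_Chat. Every pulldown library lay below every input (1.89-fold lower, log2 difference -0.92 with a standard error of 0.32, adjusted p = 0.0431). With offsets for gene length the log2 difference was -0.50 with an adjusted p of 0.183. Scn2a1 shares 4.10% of its 50-base words with Scn3a, so some reads may have been split between them or lost. Of the abundant pores, Scn1a had 210.3, 445 and 297 CPM in TRAP_Chat, against 159.9, 224 and 226 CPM in PreIP_Chat (log2 difference 0.64 with a standard error of 0.33, adjusted p = 0.16). Scn8a had 232, 294 and 342 CPM in TRAP_Chat and 306, 259.9 and 278 CPM in PreIP_Chat (log2 difference 0.04 with a standard error of 0.28, adjusted p = 0.93). Both overlapped between the groups. Scn3a, a largely embryonic pore gene, and Scn7a, which encodes a sodium sensor, had log2 differences of -0.77 and -0.60 that did not pass.

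The sodium channel beta subunits are single-span proteins that bind the pore and help to place it in the membrane. Scn2b had 82.6, 64.8 and 126 CPM in TRAP_Chat and 128, 113 and 116 CPM in PreIP_Chat, which overlap. Scn3b and Scn4b had log2 differences of 0.18 and -0.09. Nalcn, whose leak current sets resting excitability, had 71.9, 99.7 and 68.7 CPM in TRAP_Chat, against 40.6, 59.6 and 56.5 CPM in PreIP_Chat. The groups lay apart, but the difference did not pass (log2 difference 0.62 with a standard error of 0.24, adjusted p = 0.0675).

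Among 8 tested calcium channel pores, 1 was higher and 3 were lower in TRAP_Chat. Cacna1d (ENSMUSG00000015968), an L-type pore that opens at fairly low voltage and carries persistent inward current, had 25.5, 34.7 and 32.8 CPM in TRAP_Chat, against 11.0, 13.8 and 14.4 CPM in PreIP_Chat. The groups did not overlap (2.37-fold higher, log2 difference 1.24 with a standard error of 0.37, adjusted p = 0.0198). Without replicate 2 of both groups the log2 difference was 1.25 with an adjusted p of 0.103. Cacna1c, the other L-type pore tested, overlapped between the groups (log2 difference -0.38 with a standard error of 0.33, adjusted p = 0.429).

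Of the pores of nerve endings, those of N and R type were lower and that of P/Q type did not pass. Cacna1b, the N-type pore, had 26.9, 25.7 and 40.8 CPM in TRAP_Chat, against 65.8, 53.1 and 69.5 CPM in PreIP_Chat (2.02-fold lower, log2 difference -1.01 with a standard error of 0.24, adjusted p = 0.00602). Cacna1e, the R-type pore, had 28.8, 50.7 and 40.5 CPM in TRAP_Chat, against 68.7, 70.8 and 85.8 CPM in PreIP_Chat (1.88-fold lower, log2 difference -0.91 with a standard error of 0.29, adjusted p = 0.0278). Both were lower in every pulldown library than in any input. With offsets for gene length neither passed, with log2 differences of -0.65 (adjusted p = 0.0513) and -0.38 (adjusted p = 0.262). Cacna1a, the P/Q-type pore that serves the neuromuscular junction, had 76.3, 93.1 and 90.6 CPM in TRAP_Chat, against 73.9, 68.9 and 57.5 CPM in PreIP_Chat, and did not pass (adjusted p = 0.265).

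Of the 3 T-type pores, which open near rest, 1 passed. Cacna1i (ENSMUSG00000022416) had 8.47, 2.19 and 4.01 CPM in TRAP_Chat, against 26.9, 20.4 and 25.3 CPM in PreIP_Chat. It was 4.93-fold lower (log2 difference -2.30 with a standard error of 0.45, adjusted p = 0.00173), with every pulldown library under every input. Cacna1h had 17.2, 48.4 and 29.4 CPM in TRAP_Chat, against 16.9, 18.1 and 15.8 CPM in PreIP_Chat (log2 difference 0.90 with a standard error of 0.36, adjusted p = 0.0773). Cacna1g had 24.9, 43.3 and 63.7 CPM in TRAP_Chat, against 41.4, 32.6 and 31.2 CPM in PreIP_Chat (adjusted p = 0.438). Both overlapped between the groups and their pulldown libraries spread widely.

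Alpha2delta subunits are mostly extracellular proteins that help to carry the pores to nerve endings. Cacna2d3 (ENSMUSG00000021991) had 84.3, 90.4 and 80.8 CPM in TRAP_Chat, against 33.2, 37.8 and 37.8 CPM in PreIP_Chat. The pulldown libraries lay close together and stood 2.35-fold higher than the inputs (adjusted p = 0.00183). Cacna2d4, best known from the retina, had 15, 17 and 29 counts in TRAP_Chat, against 73, 80 and 109 counts in PreIP_Chat (3.92-fold lower, adjusted p = 0.0195). Cacna2d2 had 63.5, 66.3 and 63.7 CPM in TRAP_Chat, against 101, 104 and 76.7 CPM in PreIP_Chat, which lay apart but did not pass (adjusted p = 0.0995). Cacna2d1, a target of gabapentin, had a log2 difference of 0.38 ± 0.39 (SE).

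The calcium channel beta subunits are cytoplasmic and bring the pore to the membrane. Cacnb1, which skeletal muscle also uses, had 45.9, 90.4 and 68.1 CPM in TRAP_Chat, against 34.9, 37.9 and 32.1 CPM in PreIP_Chat (1.95-fold higher, adjusted p = 0.0352). Cacnb2 had 95.3, 101 and 107 CPM in TRAP_Chat, against 38.5, 53.4 and 67.6 CPM in PreIP_Chat (log2 difference 0.93, adjusted p = 0.0336). Neither overlapped between the groups. Cacnb4 had 77.0, 88.6 and 85.3 CPM in TRAP_Chat, against 90.0, 144 and 137 CPM in PreIP_Chat (adjusted p = 0.122), and Cacnb3 had a log2 difference of 0.36 ± 0.34 (SE).

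Of the gamma subunits, Cacng4 (ENSMUSG00000020723) and Cacng5, both on chromosome 11 and both auxiliary subunits of AMPA receptors, went opposite ways. Cacng4 had 13.0, 5.14 and 16.4 CPM in TRAP_Chat, against 39.1, 26.0 and 41.0 CPM in PreIP_Chat (3.06-fold lower, log2 difference -1.61 with a standard error of 0.41, adjusted p = 0.00839). Cacng5 had 35.4, 30.1 and 43.2 CPM in TRAP_Chat, against 21.1, 22.3 and 15.5 CPM in PreIP_Chat (1.84-fold higher, adjusted p = 0.0361). Neither gene overlapped between the groups. Cacng2, known as stargazin, had 76.8, 133 and 119 CPM in TRAP_Chat, against 176, 144 and 153 CPM in PreIP_Chat and did not pass (adjusted p = 0.251), nor did Cacng3.

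**Figure D3:**
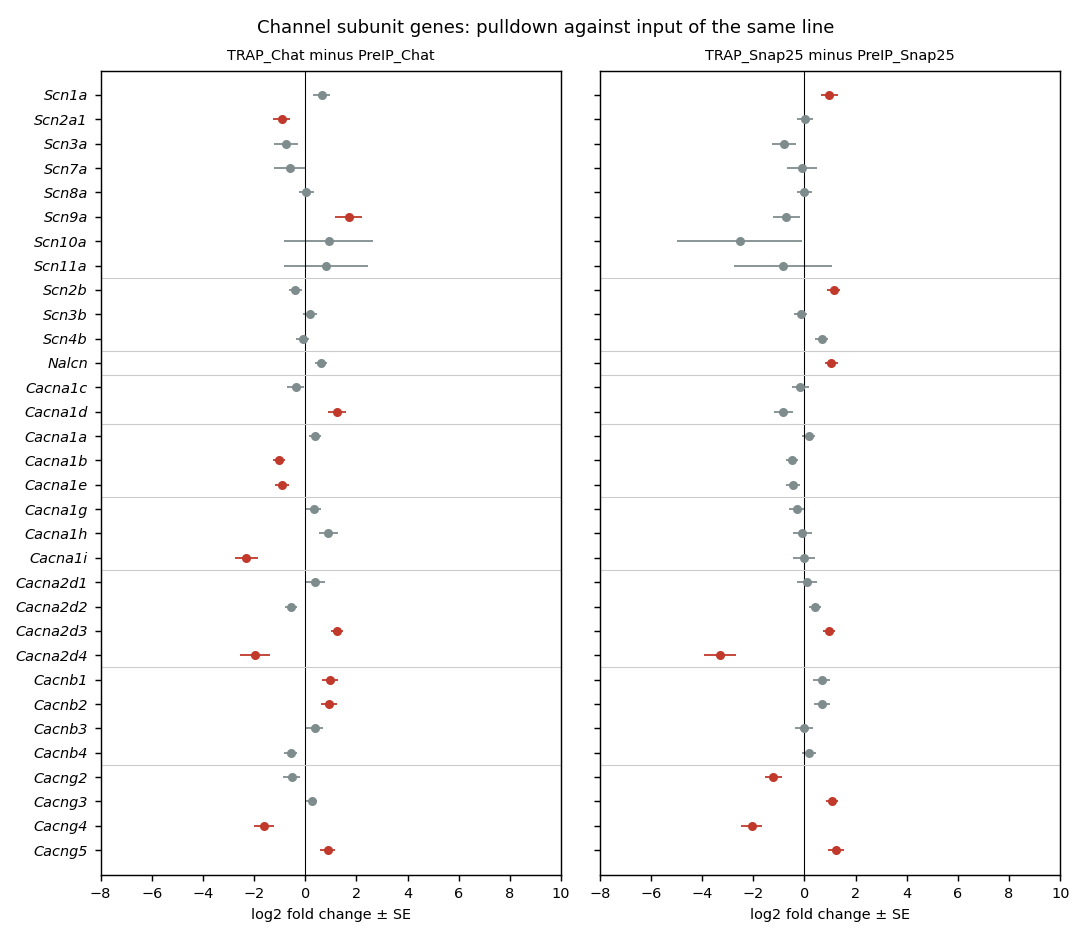
Log2 difference ± SE (edgeR) of tested channel genes in the pulldown against the input of the same line, Chat and Snap25 in separate panels, with genes in rows by role. Red points passed an adjusted p of 0.05 and gray points did not. Cacna1i is at -2.30 in the Chat line and 0.00 in the Snap25 line.

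Of the 14 calls in the Chat line, Cacna2d3, Cacna1i and Cacng4 held under every alternative run. Values in parentheses here are log2 differences without the named library. Scn9a lost its call without TRAP_Chat replicate 2 or PreIP_Chat replicate 1, 2 or 3 (1.34 to 1.78, adjusted p = 0.0621 to 0.0909). Cacna1d lost it without TRAP_Chat replicate 3 or PreIP_Chat replicate 1, 2 or 3 (1.12 to 1.31, adjusted p = 0.0525 to 0.0853). Cacnb1 lost it without TRAP_Chat replicate 2 or 3 or PreIP_Chat replicate 1, 2 or 3 (0.75 to 1.02, adjusted p = 0.0727 to 0.129), and Cacnb2 without TRAP_Chat replicate 1, 2 or 3 or PreIP_Chat replicate 1 or 2 (0.73 to 0.97, adjusted p = 0.0535 to 0.153). In each case several different libraries ended the call when left out, and the direction was kept. Cacng5 lost its call without TRAP_Chat replicate 1 or 3, PreIP_Chat replicate 1, 2 or 3 or PreIP_Snap25 replicate 1 (0.73 to 0.98, adjusted p = 0.0515 to 0.149), and Cacna1e without TRAP_Chat replicate 1 or 3 or PreIP_Chat replicate 1, 2 or 3 (-0.98 to -0.72, adjusted p = 0.0517 to 0.105). Scn2a1 lost it without TRAP_Chat replicate 1, 2 or 3, PreIP_Chat replicate 1, 2 or 3, TRAP_Snap25 replicate 1 or PreIP_Snap25 replicate 1 or 3 (-1.05 to -0.83, adjusted p = 0.0506 to 0.124), and Cacna2d4 without PreIP_Chat replicate 3 (-1.84, adjusted p = 0.0701). Cacna1b held when any 1 library was left out, and had a log2 difference of -0.95 (adjusted p = 0.0581) without replicate 2 of both groups. Leaving out that pair also ended the calls of Scn2a1 (-0.94, adjusted p = 0.149), Cacna1e (-1.10, adjusted p = 0.0633), Cacna2d4 (-2.01, adjusted p = 0.0913), Cacnb1 (0.82, adjusted p = 0.194), Cacnb2 (0.98, adjusted p = 0.128) and Cacng5 (1.15, adjusted p = 0.065).

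Gene length and other cell types moved along with these values. Over genes of at least 5 CPM, the median log2 difference of TRAP_Chat from PreIP_Chat was 0.63 below 2 kb of exon and -0.29 at 8 kb or more. The pores named above as lower have at least 8 kb, as do Scn9a and Cacna1d, which were higher. The offsets for gene length that ended the calls of Scn2a1, Cacna1b and Cacna1e also brought other genes past the threshold as higher. These were Nalcn (log2 difference 1.06, adjusted p = 0.00197), Scn1a (1.03, adjusted p = 0.0156), Cacna1h (1.255, adjusted p = 0.0236) and Cacna1a (0.76, adjusted p = 0.0403). The oligodendrocyte markers summed to between 2141 and 5809 CPM in TRAP_Chat and between 17010.0 and 22340.0 CPM in PreIP_Chat. The 7 oligodendrocyte precursor markers, all lower, summed to between 33.0 and 87.8 CPM in TRAP_Chat and between 309 and 331 CPM in PreIP_Chat. The inhibitory neuron markers summed to between 146 and 303 CPM in TRAP_Chat and between 935 and 1030.0 CPM in PreIP_Chat. The part of these cells in the lower channel genes was not tested.

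The pulldown of the Snap25 line, whose tag is meant for neurons in general, was next set against the tissue it came from. In TRAP_Snap25 7 of the 34 channel genes were higher (20.6%, against 9.69% of all tested genes) and 3 were lower (8.82%, against 12.7% of all tested genes). The median log2 difference was 0.00 over the channel genes and over all tested genes. Among those higher were Scn1a, Scn2b, Nalcn, Cacna2d3, Cacng3 and Cacng5, and lower were Cacna2d4, Cacng2 and Cacng4. Of the genes called higher, 3 of 7 in each line were so in both, Cacna2d3 and Cacng5 among them, and Cacna2d4 and Cacng4 were called lower in both. The 3 shared rises are 42.9% of the channel genes called higher in each line taken separately. Over all tested genes the shared ones were 45.9% of those called higher in the Chat line and 59.8% of those in the Snap25 line. The 2 shared falls are 28.6% of the Chat calls and 66.7% of the Snap25 calls, against 53.9% and 60.6% over all tested genes. No channel gene was called in opposite ways.

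Scn1a, Scn2b and Nalcn were among the rises. Scn1a had 581, 481 and 210.1 CPM in TRAP_Snap25, against 224, 229.5 and 198 CPM in PreIP_Snap25 (1.95-fold higher, adjusted p = 0.0459). Its groups overlapped, since TRAP_Snap25 replicate 3 lay at the level of the inputs. Scn2b (ENSMUSG00000070304), which is tied to the pore by a disulfide bond, had 272, 244 and 316 CPM in TRAP_Snap25, against 154, 121 and 101 CPM in PreIP_Snap25 (2.22-fold higher, log2 difference 1.15 with a standard error of 0.26, adjusted p = 0.00515). It was higher in every pulldown library than in any input. Nalcn (ENSMUSG00000000197) had 114, 113 and 76.7 CPM in TRAP_Snap25, against 48.3, 51.0 and 47.3 CPM in PreIP_Snap25 (2.07-fold higher, adjusted p = 0.00613). Scn4b, whose product takes part in resurgent sodium current, had 215, 186 and 306 CPM in TRAP_Snap25, against 192, 116 and 133 CPM in PreIP_Snap25, and did not pass (adjusted p = 0.0706). Scn8a was level, with a log2 difference of 0.00 ± 0.28 (SE).

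The 8 calcium channel pores stayed short of the threshold in the Snap25 line, with log2 differences between -0.82 for Cacna1d and 0.16 for Cacna1a. Cacna1i, lower in the Chat pulldown, had 22.9, 11.4 and 25.2 CPM in TRAP_Snap25 and 28.8, 13.0 and 17.7 CPM in PreIP_Snap25, which overlap (log2 difference 0.00 with a standard error of 0.43, adjusted p = 0.999). Cacna1b had 37.8, 48.0 and 44.2 CPM in TRAP_Snap25, against 58.2, 69.3 and 54.4 CPM in PreIP_Snap25. It lay lower in every pulldown library but did not pass (adjusted p = 0.16).

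The auxiliary calcium channel genes held further calls. Cacna2d3 had 60.5, 77.5 and 39.2 CPM in TRAP_Snap25, against 30.7, 29.7 and 30.2 CPM in PreIP_Snap25 (1.96-fold higher, adjusted p = 0.00984). Cacna2d4 had 13, 3 and 3 counts in TRAP_Snap25, against 97, 79 and 57 counts in PreIP_Snap25 (9.83-fold lower, adjusted p = 0.00213). Neither overlapped between the groups. Among gamma genes, Cacng3 had 52.2, 62.1 and 63.4 CPM in TRAP_Snap25, against 29.6, 24.8 and 28.9 CPM in PreIP_Snap25 (2.13-fold higher, adjusted p = 0.0038). Cacng5 had 28.3, 31.3 and 60.1 CPM in TRAP_Snap25, against 16.2, 16.8 and 17.9 CPM in PreIP_Snap25 (2.35-fold higher, adjusted p = 0.00841). Both lay above the inputs in all pulldown libraries. Cacng4 had 11.4, 5.13 and 15.1 CPM in TRAP_Snap25, against 37.8, 51.8 and 41.0 CPM in PreIP_Snap25 (4.17-fold lower, adjusted p = 0.00286). Cacng2 had 79.2, 74.8 and 32.8 CPM in TRAP_Snap25, against 183, 162 and 89.4 CPM in PreIP_Snap25 (2.33-fold lower, adjusted p = 0.0155). All pulldown values of Cacng4 and Cacng2 lay below all inputs.

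Of these 10 calls, 7 held under all 21 alternatives, those of Scn2b, Nalcn, Cacna2d4, Cacng3, Cacng4 and Cacng5 among them. Scn1a lost its call without TRAP_Chat replicate 3, PreIP_Chat replicate 1, 2 or 3, TRAP_Snap25 replicate 1 or 2 or PreIP_Snap25 replicate 1, 2 or 3 (adjusted p = 0.0598 to 0.195), Cacna2d3 without TRAP_Snap25 replicate 2 (0.72, adjusted p = 0.061), and Cacng2 without PreIP_Snap25 replicate 1 or 2 (-1.14 to -1.02, adjusted p = 0.0558 to 0.0742), where a log2 difference in parentheses is the one without the named library. TRAP_Snap25 replicate 3 deviated with gene length: its 18 channel genes of at least 8 kb had a median log2 deviation from the group of -0.74, and the 12 shorter ones of 0.45, while all genes of at least 8 kb had -0.30. Scn1a also lost its call without replicate 2 of both Chat groups (adjusted p = 0.0525). Without TRAP_Snap25 replicate 3 Scn1a had a log2 difference of 1.28 (adjusted p = 0.00364). That removal also brought Cacnb2 past the threshold as higher (0.98, adjusted p = 0.0117) and Cacnb3 as lower (-0.70, adjusted p = 0.0458). Cacnb3 had 23.0, 21.8 and 63.3 CPM in TRAP_Snap25, against 38.9, 34.3 and 35.6 CPM in PreIP_Snap25. The 8 astrocyte markers summed to between 159 and 347 CPM in TRAP_Snap25 and between 1391 and 1768 CPM in PreIP_Snap25, and their part in the lower channel genes was not tested.

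**Figure D4:**
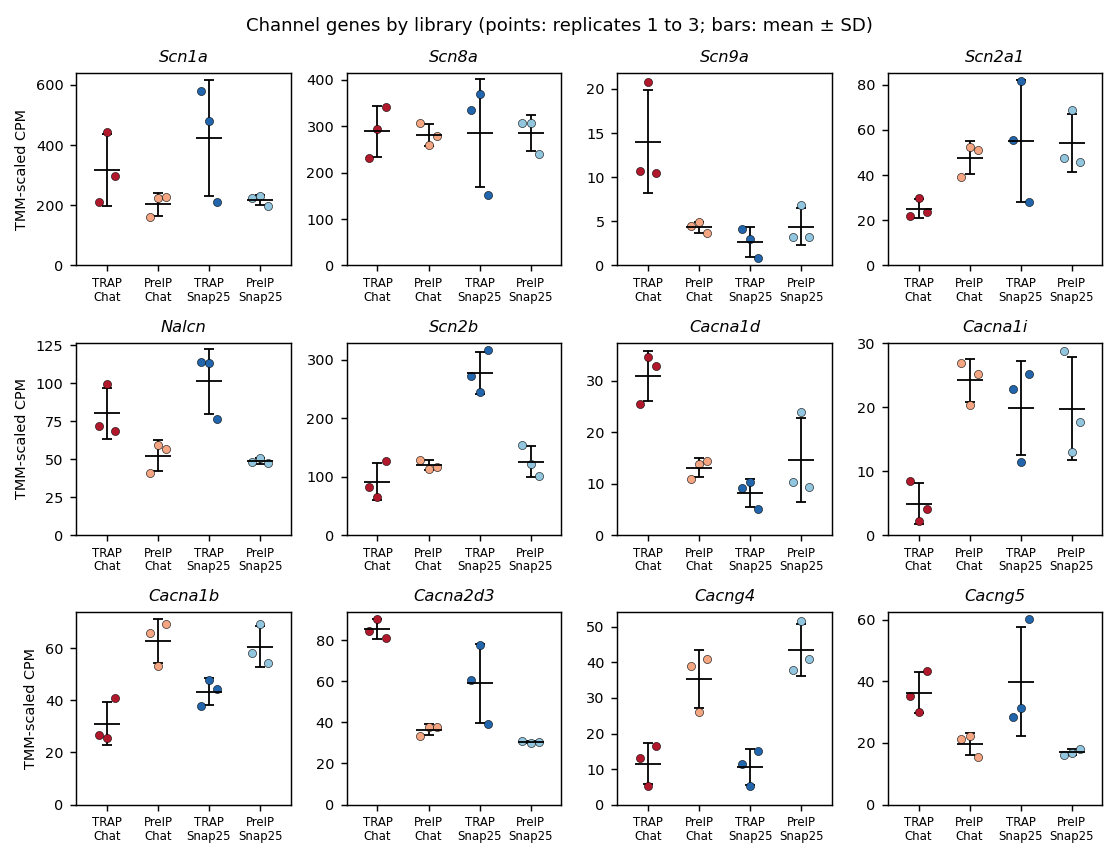
TMM-scaled CPM of 12 channel genes in every library (points), with the mean and SD of each group, in the order TRAP_Chat, PreIP_Chat, TRAP_Snap25, PreIP_Snap25. Cacna1d lies between 25.5 and 34.7 CPM in TRAP_Chat, above every other library, and Scn2b between 244 and 316 CPM in TRAP_Snap25, above every other library.

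The series sets motor neurons beside spinal neurons in general, and for this the pulldowns of the lines were compared. Both pulldowns may also hold RNA of other cells. Of the 34 channel genes, Scn9a and Cacna1d were higher in TRAP_Chat than in TRAP_Snap25 (5.88%, against 3.97% of all tested genes). Cacna1i, Scn2b, Scn2a1 and Cacna2d2 were lower (11.8%, against 2.77% of all tested genes). The groups lay apart for 4 genes that were higher (11.8%, against 10.3% of all tested genes) and 6 that were lower (17.6%, against 9.47% of all tested genes). The median log2 difference was -0.01 over the channel genes and 0.01 over all tested genes.

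Cacna1d had 25.5, 34.7 and 32.8 CPM in TRAP_Chat, against 9.11, 10.3 and 5.08 CPM in TRAP_Snap25. Even the lowest Chat library was above the highest Snap25 library (3.77-fold higher, log2 difference 1.92 with a standard error of 0.38, adjusted p = 0.00556), and the call held under all 20 alternatives. Scn9a had 10.8, 20.8 and 10.5 CPM in TRAP_Chat, against 4.19, 3.01 and 0.814 CPM in TRAP_Snap25 (5.16-fold higher, log2 difference 2.37 with a standard error of 0.54, adjusted p = 0.0134). The groups did not overlap, and the lowest value, in TRAP_Snap25 replicate 3, rested on 8 counts. Without replicate 2 of both Chat groups, and so without the libraries that held Scn10a and Scn11a, the log2 difference of Scn9a was 2.01 with an adjusted p of 0.0766, and without TRAP_Chat replicate 2 alone the adjusted p was 0.0505. Its antisense neighbor Gm13629 had 1.42, 8.77 and 8.59 CPM in TRAP_Chat and 9.99, 9.27 and 5.29 CPM in TRAP_Snap25, which overlap.

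Scn2b had 82.6, 64.8 and 126 CPM in TRAP_Chat, against 272, 244 and 316 CPM in TRAP_Snap25. It was 3.04-fold lower (log2 difference -1.60 with a standard error of 0.26, adjusted p = 0.00127), with no overlap, and held under all 20 alternatives. Cacna1i had 8.47, 2.19 and 4.01 CPM in TRAP_Chat, against 22.9, 11.4 and 25.2 CPM in TRAP_Snap25 (4.03-fold lower, log2 difference -2.01 with a standard error of 0.45, adjusted p = 0.0123). The groups did not overlap here either. Cacna1i lost its call without TRAP_Chat replicate 3 (-1.88, adjusted p = 0.0502), and without replicate 2 of both Chat groups (-1.64, adjusted p = 0.0726). Cacna2d2 (ENSMUSG00000010066), a gabapentin-binding subunit of inhibitory neurons and cerebellar Purkinje cells, had 63.5, 66.3 and 63.7 CPM in TRAP_Chat, against 96.5, 116 and 144 CPM in TRAP_Snap25 (1.84-fold lower, adjusted p = 0.0341). It lost its call without TRAP_Chat replicate 1, 2 or 3, PreIP_Chat replicate 1 or 2 or TRAP_Snap25 replicate 2 or 3 (-0.90 to -0.72, adjusted p = 0.055 to 0.0931), and without replicate 2 of both Chat groups (-0.87, adjusted p = 0.135). Scn2a1 had 21.8, 30.1 and 23.8 CPM in TRAP_Chat, against 55.8, 81.8 and 28.0 CPM in TRAP_Snap25 (2.19-fold lower, adjusted p = 0.0442). Replicate 3 of TRAP_Snap25 fell within the Chat range, and the call held under 7 of 20 alternatives. It was lost without TRAP_Chat replicate 1, 2 or 3, PreIP_Chat replicate 1, 2 or 3, TRAP_Snap25 replicate 1 or 2 or PreIP_Snap25 replicate 1, 2 or 3 (-1.24 to -0.73, adjusted p = 0.0505 to 0.209), and without replicate 2 of both Chat groups (-1.24, adjusted p = 0.0993).

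Other channel genes lay apart between the pulldowns without passing. Cacna1a and Cacna2d3 were above TRAP_Snap25 in every TRAP_Chat library, with log2 differences of 0.43 and 0.53 (adjusted p = 0.325 and 0.212). Cacnb4 had 77.0, 88.6 and 85.3 CPM in TRAP_Chat, against 184, 160.0 and 107 CPM in TRAP_Snap25 (log2 difference -0.85 with a standard error of 0.26, adjusted p = 0.0653). Cacng3 and Cacna1e likewise lay below TRAP_Snap25 in every TRAP_Chat library, with log2 differences of -0.73 and -0.54 (adjusted p = 0.0653 and 0.291). Scn8a had a log2 difference of 0.02 ± 0.28 (SE). Without TRAP_Snap25 replicate 3, Cacnb3 (log2 difference 1.24, adjusted p = 0.00548) and Cacna1h (1.34, adjusted p = 0.0474) passed as higher in TRAP_Chat. Cacnb4 then passed as lower (-1.04, adjusted p = 0.0179). The inhibitory neuron markers, of which 7 of 8 were lower, summed to between 146 and 303 CPM in TRAP_Chat and between 973 and 1302 CPM in TRAP_Snap25. The excitatory interneuron markers, of which 1 of 5 was lower, summed to between 56.9 and 74.7 CPM in TRAP_Chat and between 198 and 228 CPM in TRAP_Snap25. The part of these cells in the lower channel genes was not tested.

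**Figure D5:**
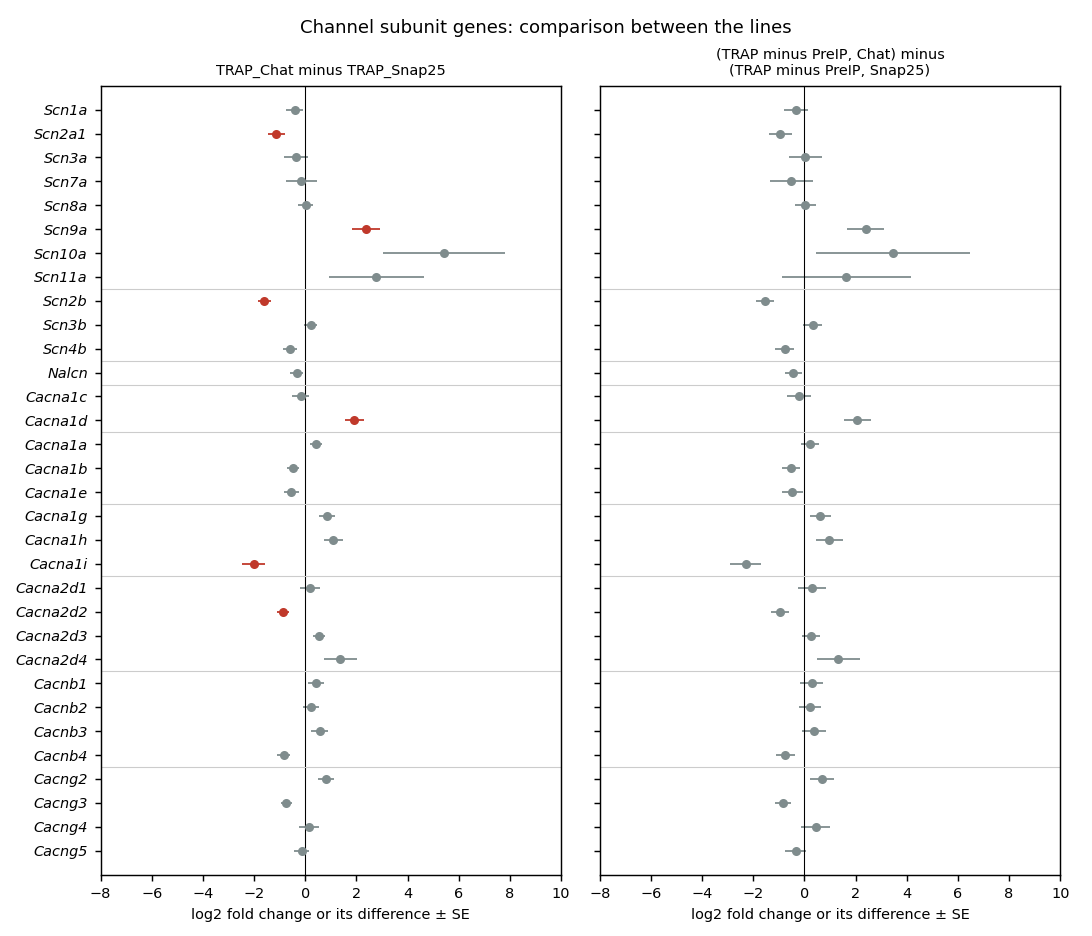
Log2 difference ± SE (edgeR) of tested channel genes between TRAP_Chat and TRAP_Snap25, and the difference of the lines in their change from PreIP to TRAP, in separate panels. Red points passed an adjusted p of 0.05, which 6 genes did between the pulldowns and 0 in the other panel.

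A further test asked whether the pulldown departed from its own input to another extent in the Chat line than in the Snap25 line. It shares its pulldown libraries with the comparison just given. No channel gene passed in the main edgeR fit, against 0.604% of all tested genes higher and 0.44% lower. In that fit 7 of 34 had an unadjusted p under 0.05 (20.6%, against 11.5% of all tested genes). DESeq2 called 2 higher and 2 lower, and limma voom 0 higher and 2 lower. The log2 estimates were 2.07 ± 0.52 for Cacna1d (SE, adjusted p = 0.0686), 2.40 ± 0.74 for Scn9a (adjusted p = 0.152), -2.30 ± 0.61 for Cacna1i (adjusted p = 0.0871) and -1.53 ± 0.36 for Scn2b (adjusted p = 0.0509). DESeq2 called these same 4 genes, as did edgeR with no filter on low counts. With a replicate block edgeR called Cacna1d, Cacna1i and Scn2b, with length offsets Cacna1d and Scn2b, and with the filter of 1 CPM Scn2b. Scn10a had a larger estimate at few counts, with a standard error of 3.01.

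The inputs of the lines were compared as a check. No channel gene passed between PreIP_Chat and PreIP_Snap25, and 0% of all tested genes were higher and 0% lower by edgeR. Of the 34 channel genes 0 had an unadjusted p under 0.05, against 0.836% of all tested genes, and DESeq2 and limma voom also called 0. Apart from genes of few counts, such as Scn10a and Scn11a, the log2 differences lay between -0.42 for Scn3a and 0.35 for Scn7a.

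Proteins that work with the channels were described from 5 lists. Beside their counts stand 12.6% higher and 14.3% lower of all tested genes in TRAP_Chat against its input, and 9.69% higher and 12.7% lower in TRAP_Snap25 against its input. At these list sizes several of the counts lie near those shares, and the lists are given as a description. Whether the calls of these partner genes hold under the alternatives was not examined. Of 13 intracellular modulators of sodium channels, 3 were higher and 2 lower in TRAP_Chat against its input, and 4 were higher and 0 lower in TRAP_Snap25 against its input. Fgf11, a fibroblast growth factor homologous factor that binds the tail of the pore, was 5.15-fold higher in TRAP_Chat than in PreIP_Chat (log2 difference 2.36 with a standard error of 0.27, adjusted p = 2.65e-05). It was also 3.39-fold higher in TRAP_Chat than in TRAP_Snap25 (adjusted p = 0.000599), and 1.75-fold higher in TRAP_Snap25 than in PreIP_Snap25 (adjusted p = 0.0327). Its relatives Fgf13 and Fgf12 were 2.14-fold higher and 2.02-fold higher in TRAP_Snap25 than in PreIP_Snap25 (adjusted p = 0.00773 and 0.0204), with overlap between the groups for Fgf12. The calmodulin gene Calm2 was 3.27-fold higher in TRAP_Chat than in PreIP_Chat (adjusted p = 0.000326) and 2.29-fold higher in TRAP_Snap25 than in PreIP_Snap25 (adjusted p = 0.00456). Camk2a, a kinase that calmodulin switches on, was 3.33-fold lower in TRAP_Chat than in PreIP_Chat and 2.77-fold lower than in TRAP_Snap25.

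Of 11 tested calcium channel regulators, 2 were higher and 2 lower in TRAP_Chat against its input. Gem, a small GTPase that inhibits high-voltage calcium channels, was 6.14-fold higher (adjusted p = 0.000375), and Stac, an adaptor of L-type channels, was 3.31-fold higher (adjusted p = 0.016). Both were also higher in TRAP_Chat than in TRAP_Snap25, Gem by 2.56-fold and Stac by 3.33-fold (adjusted p = 0.0486 and 0.0443). The pulldowns overlapped for Stac, with 11.8 ± 5.15 CPM in TRAP_Chat and 3.59 ± 2.39 CPM in TRAP_Snap25 (SD). Rims2, a scaffold of the transmitter release site, was 2.57-fold lower in TRAP_Chat than in PreIP_Chat and 2.09-fold lower in TRAP_Snap25 than in PreIP_Snap25. Cachd1, a relative of the alpha2delta subunits, was 1.86-fold lower in TRAP_Chat than in PreIP_Chat. Stac2 was 1.70-fold higher in TRAP_Snap25 than in PreIP_Snap25, where 2 regulators in all were higher and 1 was lower.

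Of 10 scaffolds of the initial segment and node, 0 were higher and 2 lower in TRAP_Chat against its input, and 1 was higher and 3 lower in TRAP_Snap25 against its input. Ank3, the ankyrin that anchors sodium channels, was 1.67-fold lower in TRAP_Chat than in PreIP_Chat and 1.65-fold lower in TRAP_Snap25 than in PreIP_Snap25. Nfasc, a node adhesion molecule that glia also express, was 1.95-fold lower in the Chat pulldown and 2.49-fold lower in the Snap25 pulldown than in their inputs. Sptbn1, a spectrin, was 2.19-fold lower and Cntnap2, a protein that clusters potassium channels beside the node, 1.80-fold higher in TRAP_Snap25 than in PreIP_Snap25.

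Of 3 tested members of the Nalcn complex, Unc79, which holds the channel together with Unc80, was 2.56-fold lower in TRAP_Chat than in PreIP_Chat and 2.19-fold lower in TRAP_Snap25 than in PreIP_Snap25. Nalcn itself was the other way in the Snap25 line. Of 8 calcium release and other voltage-sensing channels, 1 was higher and 2 were lower in TRAP_Chat against its input, and 0 and 2 in TRAP_Snap25. Itpr1, a calcium release channel of the endoplasmic reticulum, was 2.04-fold higher in TRAP_Chat than in PreIP_Chat and 1.94-fold higher than in TRAP_Snap25. Tpcn1, a channel of endosomes, was 2.77-fold lower in TRAP_Chat than in PreIP_Chat and 2.77-fold lower in TRAP_Snap25 than in PreIP_Snap25.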

How the data were processed

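RNA of 12 spinal cord libraries was read as raw counts per gene, as deposited. Libraries were amplified with a Nugen Ovation kit, per the labels' protocols. Per the submitters' processing notes the tools were STAR and HTSeq, so the authors' counts are of whole reads over genes. Their versions, the build and the handling of strand were not stated in what was used here. Of 41736 lines, 824 exact repeats were dropped.

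Counts were fitted with edgeR 4.0.16 in R 4.3.3 (filterByExpr, TMM, quasi-likelihood test, all 12 libraries, 1 mean per group), two-sided, with Benjamini-Hochberg adjustment over 15905 genes. Adjusted p-values in the text are from this fit. Exon lengths are from GENCODE M21, found for 41 of the 43 IDs, and promoter windows from RefSeq. The code was tested on simulated data. Alternatives were RLE scaling, no filter, a filter of 1 CPM in 3 libraries, DESeq2 1.42.0, limma 3.58.1 voom with sample weights, the groups compared alone, a replicate block and leaving out each library. The removal of replicate 2 from both Chat groups and the length offsets were chosen after seeing the data.

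The channel genes, partner lists and markers were chosen with earlier results of these data known. Some genes that these counts include are not reported here by name. Each other channel gene is accounted for, with statistics for those past the threshold or whose groups did not overlap. Of each partner list, up to 3 genes per direction are named, by size of the difference, with a mean of at least 5 CPM.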

Additional observations from a re-analysis of the deposited data

How the results depend on the processing

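No alternative reversed a called channel gene. For the Snap25 pulldown and for the inputs, every alternative gave counts within 1.5 times those reported. For TRAP_Chat against PreIP_Chat, leaving out 1 library gave 2 to 8 channel genes higher and 3 to 7 lower, leaving out replicate 2 of both groups gave 1 and 2, and the length offsets gave 11 and 4. For TRAP_Chat against TRAP_Snap25, no filter gave 5 higher, the groups compared alone 1 higher and 1 lower, leaving out 1 library 1 to 4 higher and 1 to 4 lower, and leaving out replicate 2 of both Chat groups 1 and 1. For the difference between the lines, no filter and DESeq2 each gave 2 higher and 2 lower, the filter of 1 CPM gave 1 lower, voom 2 lower, the length offsets 1 higher and 1 lower, and leaving out 1 library 0 higher and 0 to 1 lower. The causes were not tested. Pulldown and input libraries with the same number had correlations of their deviations of 0.060, 0.102 and 0.127 in the Chat line. There each library correlated best with its own number, and libraries of unlike numbers had negative correlations. Deviations from a group mean cancel out within the group, so positive values for like numbers push those for unlike numbers down. The negative values therefore say little of their own about pairing. In the Snap25 line the values were -0.037, 0.167 and 0.147, and not every library correlated best with its own number. The main fit was set up without pairing, with the replicate block as an alternative. The libraries may nevertheless be paired, in the Chat line above all. The descriptions of a pulldown and an input with the same number also share a suffix, whose meaning the labels do not give. The replicate block gave 6 higher and 7 lower in the Chat pulldown, 7 and 3 in the Snap25 pulldown, and 1 and 2 for the difference between the lines, where Cacna1d (adjusted p = 0.0356), Cacna1i (adjusted p = 0.0221) and Scn2b (adjusted p = 0.0366) passed. Scn10a, Scn11a and Cacna2d4 rest on few counts.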
